A study of Mus musculus with 7 samples.

Results

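The genes described here encode potassium channels and their helper subunits, the Kcn family, measured in pancreatic islets of mice that lack FoxO transcription factors in beta cells. Members were all genes with a symbol starting with Kcn that had a probe set with a single gene symbol in the array's annotation, with the probe set of highest mean standing for a gene. This gave 73 of 14807 genes, in 17 subfamilies by the letter after Kcn. RNA was hybridised to Affymetrix arrays in 7 samples: 3 samples, numbered 5 to 7, of islets with a beta cell-specific knockout of FoxO1, FoxO3 and FoxO4 (called knockout here, labelled R+KO, with no explanation of R+), and 4 samples, numbered 1 to 4, of islets from control (WT) littermates. All animals were of the mixed 129 x FVBn x C57BL/6 background, matched for age and sex. Islets also hold other endocrine cells, which keep the genes. Neither the age, nor the driver of the deletion, nor the number of animals behind a sample is stated, and the p-values therefore reflect differences between samples that may be technical.

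Potassium channels let potassium leave the cell and pull the membrane potential down. In beta cells, closure of ATP-sensitive potassium channels after glucose uptake depolarises the membrane, opens calcium channels and starts insulin release, while voltage-gated and calcium-activated potassium channels end each action potential. A channel is built of pore-forming subunits, among them the voltage-gated (Kcna to Kcnd, Kcnh, Kcnq), inwardly rectifying (Kcnj), tandem-pore (Kcnk) and calcium-activated (Kcnma1, Kcnn) ones. Silent subunits (Kcnf, Kcng, Kcns, Kcnv) form no channel alone but modify voltage-gated partners, and accessory subunits (Kcnab, Kcne, Kcnip, Kcnmb) change gating or transport to the membrane. FoxO proteins, forkhead transcription factors, leave the nucleus when insulin signalling is active.

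Promoter windows from 250 bases before to 50 after a start site are shown for the 3 members with the smallest p and for Kcnmb1, which lies inside Kcnip1 on the opposite strand. They come from RefSeq on GRCm38.p6, are written 5′ to 3′ on the gene's strand, and have each CG dinucleotide in capitals. The Kcnh5 window (chr12:75177283-75177582, minus strand) holds 17 CG dinucleotides, that of Kcnmb2 (chr3:31902453-31902752, plus strand) 9, that of Kcna2 (chr3:107101317-107101616, plus strand) 31 and that of Kcnmb1 (chr11:33962763-33963062, plus strand) 1.
Kcnh5: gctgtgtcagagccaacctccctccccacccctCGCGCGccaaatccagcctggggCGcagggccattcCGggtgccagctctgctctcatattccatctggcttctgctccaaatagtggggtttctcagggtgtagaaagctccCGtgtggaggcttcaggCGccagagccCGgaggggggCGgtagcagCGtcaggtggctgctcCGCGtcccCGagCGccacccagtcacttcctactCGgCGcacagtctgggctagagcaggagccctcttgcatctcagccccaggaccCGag
Kcnmb2: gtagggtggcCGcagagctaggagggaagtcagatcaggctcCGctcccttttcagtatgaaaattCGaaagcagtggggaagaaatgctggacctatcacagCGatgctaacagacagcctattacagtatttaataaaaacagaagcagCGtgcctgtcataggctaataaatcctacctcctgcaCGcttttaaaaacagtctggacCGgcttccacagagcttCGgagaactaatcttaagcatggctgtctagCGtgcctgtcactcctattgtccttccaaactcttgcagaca
Kcna2: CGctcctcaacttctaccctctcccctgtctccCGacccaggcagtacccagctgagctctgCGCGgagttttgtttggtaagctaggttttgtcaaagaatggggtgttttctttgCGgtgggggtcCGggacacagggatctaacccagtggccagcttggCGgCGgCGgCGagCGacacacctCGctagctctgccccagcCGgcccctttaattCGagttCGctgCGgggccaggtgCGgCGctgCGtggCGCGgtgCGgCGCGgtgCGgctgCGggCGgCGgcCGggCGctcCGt
Kcnmb1: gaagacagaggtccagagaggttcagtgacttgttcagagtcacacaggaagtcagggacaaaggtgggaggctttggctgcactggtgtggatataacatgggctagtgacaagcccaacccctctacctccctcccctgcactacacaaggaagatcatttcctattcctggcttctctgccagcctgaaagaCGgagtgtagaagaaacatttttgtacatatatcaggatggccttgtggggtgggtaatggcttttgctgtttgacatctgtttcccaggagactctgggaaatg
Windows were given for 58 of the 73 members, 79 windows in all, with a median of 9 CG dinucleotides, against 7 over all 32851 windows. The forkhead motif GTAAACA, which FoxO proteins bind, was in 0 of the 79 on either strand, against 3.65% of all windows. The related CAAAACA was in 7 of them (8.86%), in Kcnj8, Kcnj15, Kcnj16, Kcnk2, Kcnk18 and Kcns3, against 6.28% of all windows. A window without these letters says nothing of binding elsewhere in the gene.

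Values are log2 signals, and every difference is knockout minus control on the log2 scale. Hormone genes were high in both groups, for Ins2 13.20 ± 0.02 in the 3 knockout samples and 12.99 ± 0.20 in the 4 controls (mean ± SD). Foxo4 differed by -0.47 (SE 0.16), Foxo1 by -0.26 (SE 0.17) and Foxo3 by -0.16 (SE 0.11), none past the test over all genes. Where the probes lie relative to the deleted exons is not stated, so these values do not check the labels. Controls 3 and 4 lay apart, at 43.2 and 30.3 on the first principal component (64.7% of the variance), where the other 5 samples lay between -29.0 and -3.40, so many of the differences are also given without them. Over all genes the median difference was 0.08, and 68.4% of differences were above 0.

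Over the whole family, the share of potassium channel genes called was near that of all genes. At higher signal the share was larger, both for the members and for all genes. Of 73 members, 0 passed limma's test (a moderated linear model, Benjamini-Hochberg adjustment over all 14807 genes, threshold 0.05), where 0.00675% of all genes passed. Below an unadjusted p of 0.05 lay 8 members that were higher and 1 that was lower in knockout islets, 12.3% together, against 13.7% of all genes (11.6% higher, 2.14% lower). In 8 members (11.0%) every knockout sample lay above every control, and in 0 below, against 8.99% and 1.94% of all genes (10.9% together). The median difference was 0.04, with 48 members (65.8%) above 0. The 18 members at or above the median gene's level had a median of 0.34, with 15 above 0, and 5 of them were higher at an unadjusted p under 0.05 (27.8%). Genes at those levels had a median of 0.16, with 17.0% called higher and 2.35% lower, and whether the members depart from them was not tested. Without controls 3 and 4 the median of those 18 was 0.14, with 13 above 0. After quantile normalization it was 0.19, with 12 above 0. The 55 members of lower signal had a median of 0.03, with 33 above 0, 3 called higher and 1 lower. The share called among all genes of lower signal was not computed. Of all 14807 genes 1711 were called higher and 317 lower. Of the 7404 at or above the median gene, fitted alone, 1259 and 174 were. Whether the 55 members depart from other genes of lower signal was not tested. Of the members 50 differed by less than 0.2, and for 48 the 95% interval lay within 0.5 of 0. The 9 with the smallest p held 4 accessory subunits (Kcnmb1, Kcnmb2, Kcnab2, Kcnip4), 4 pore-forming subunits (Kcnh5, Kcna2, Kcnj1, Kcnn4) and 1 silent subunit (Kcnf1). The count of 8 higher members was 4 without knockout 6, where 4.9% of all genes were called higher, 13 without knockout 7 (13.4%, with 4.26% of all genes and 1 member lower) and 5 without control 4 (5.92%). After quantile normalization 5 were higher and 3 lower, against 8.62% and 4.77% of all genes. With each sample centred on its median 4 were higher and 3 lower, against 7.58% and 6.55%.

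**Figure D1:**
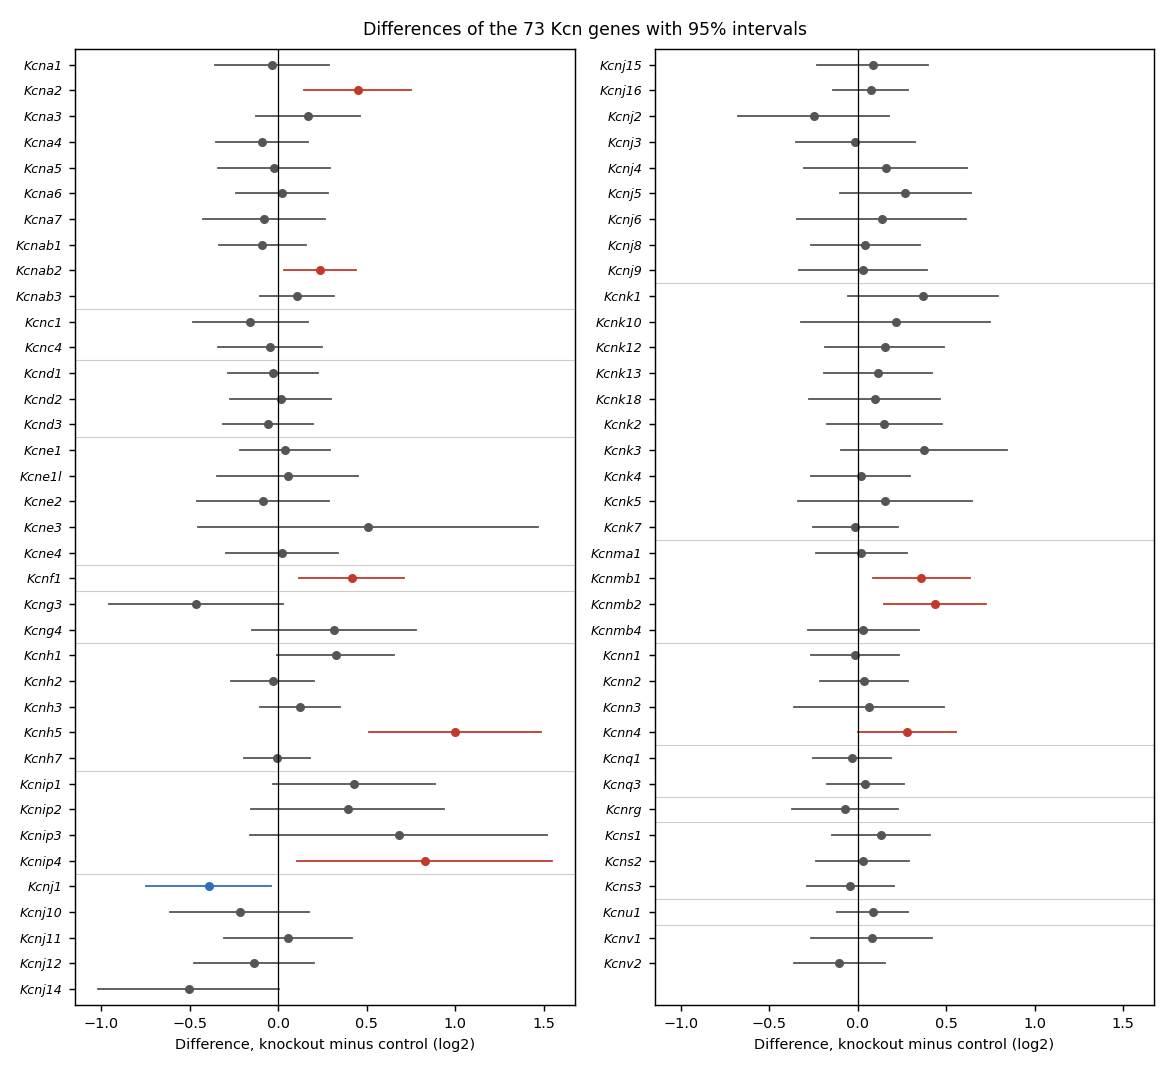
Difference of each Kcn gene (x axis, knockout minus control, log2) with its 95% interval from limma, ordered by subfamily, with thin lines between subfamilies. Red points were higher (8 genes) and the blue point lower (1 gene) at an unadjusted p under 0.05, and Kcnh5 lies farthest from 0, at 1.00.

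Among voltage-gated pore-forming subunits, Kcnh5 had the largest difference of all members. It encodes a channel of the ether-à-go-go group, which opens on depolarisation and is best known from brain. Its values were 8.96, 8.82 and 9.56 in knockouts 5, 6 and 7, against 8.52, 7.94, 8.01 and 7.98 in controls 1 to 4. The groups did not overlap, and control 1 was the highest control by a wide gap. The difference was 1.00 (SE 0.21, 95% interval 0.51 to 1.49, adjusted p = 0.362), a fold of 2.00. Over single samples left out it ran from 0.77 without knockout 7 to 1.15 without knockout 6, with an unadjusted p under 0.05 in 7 of 7, and without controls 3 and 4 it was 0.88 (SE 0.26).

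The other Kcnh genes differed by -0.03 to 0.32. Kcnh1, the closest relative of Kcnh5 in the group, was at 9.36, 9.66 and 9.97 in knockouts 5 to 7, against 9.37, 9.29, 9.27 and 9.43 in controls 1 to 4. Knockout 5 lay among the controls and the other 2 knockouts above them, a difference of 0.32 (SE 0.14, adjusted p = 0.368) that was 0.17 without knockout 7 and 0.33 without controls 3 and 4. Kcnh2, which encodes the ERG channel that repolarises heart and islet cells, was at 8.94, 9.11 and 9.23 in knockouts 5 to 7, against 9.21, 9.06, 9.15 and 9.07 in controls 1 to 4. Its values overlapped widely, with a difference of -0.03 and a 95% interval of -0.27 to 0.20. Kcnh3 and Kcnh7 differed by 0.12 and -0.01.

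Of the Kcna genes, which encode voltage-gated pores and their beta subunits, Kcna2 had the smallest p. It was at 8.52, 8.58 and 8.79 in knockouts 5 to 7, against 8.47, 8.10, 8.05 and 8.11 in controls 1 to 4. All knockouts lay above all controls, but knockout 5 was only just above control 1. The difference was 0.45 (SE 0.13, 95% interval 0.15 to 0.75, adjusted p = 0.362), and 0.35 (SE 0.15) without controls 3 and 4. Over the 7 pore-forming Kcna genes 3 differences were above 0 and the median was -0.02. Besides Kcna2 these ran from -0.09 for Kcna4 to 0.17 for Kcna3, known as a main Kv channel of T cells.

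In the Kcnc, Kcnd and Kcnq subfamilies all 7 measured genes had differences between -0.16 and 0.04. Kcnd1 encodes an A-type channel, which inactivates fast, and was at 7.05, 7.15 and 7.43 in knockouts 5 to 7, against 7.30, 7.21, 7.24 and 7.22 in controls 1 to 4. Kcnd2, of the same type, was at 6.57, 6.24 and 6.45 in knockouts 5 to 7, against 6.31, 6.57, 6.24 and 6.50 in controls 1 to 4. Kcnq1, a slow delayed rectifier whose human gene lies at a locus linked to type 2 diabetes, was at 7.06, 7.10 and 7.06 in knockouts 5 to 7, against 7.15, 7.21, 7.12 and 6.95 in controls 1 to 4. The groups overlapped in all 3 genes, and their 95% intervals were -0.29 to 0.22, -0.27 to 0.30 and -0.25 to 0.18. Kcnc1 differed by -0.16, and by -0.39 in its second probe set, which was not used.

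**Figure D2:**
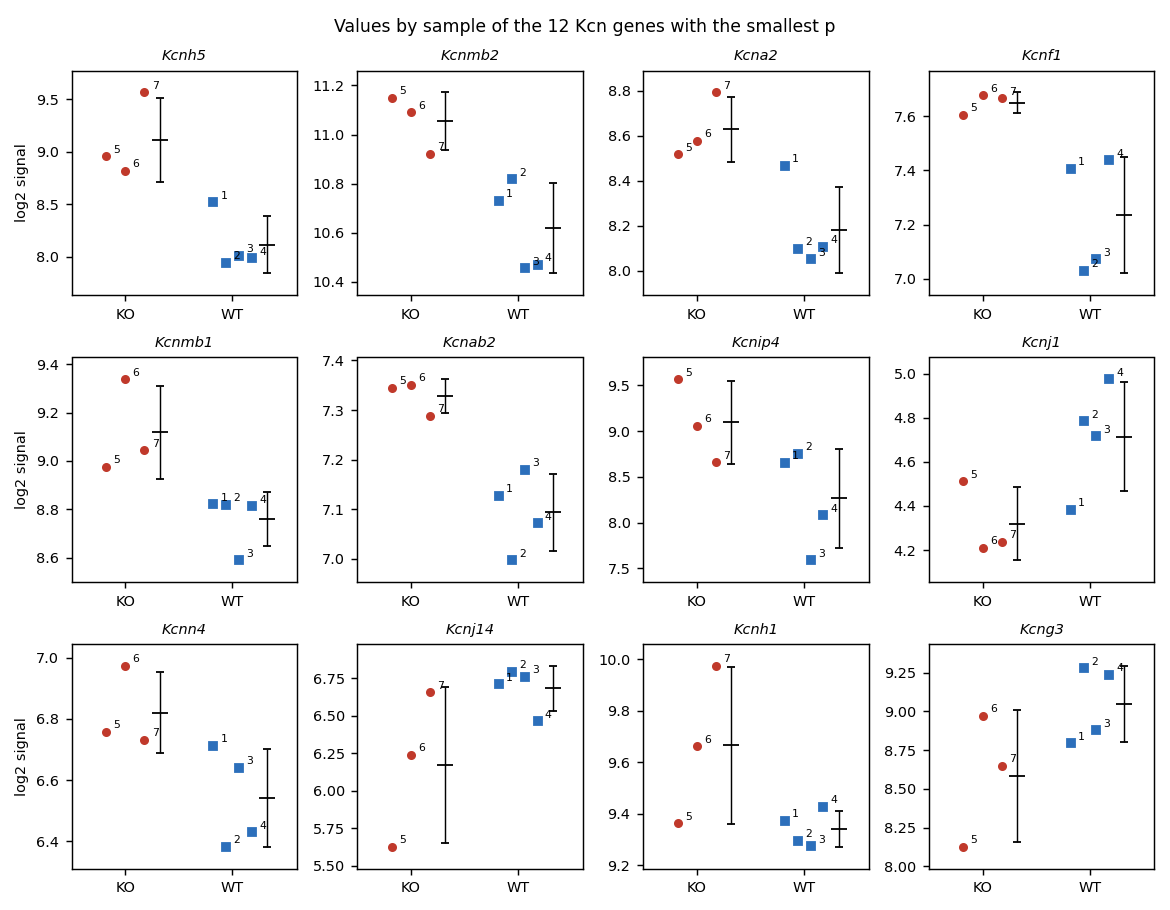
Log2 signal (y axis, own scale in each panel) of the 12 Kcn genes with the smallest p in knockout (KO, red circles) and control (WT, blue squares) samples, numbered as in the text, with mean and SD beside each group (n = 3 and 4). The groups are apart for Kcnh5, Kcnmb2, Kcna2, Kcnf1, Kcnmb1, Kcnab2 and Kcnn4, and overlap for Kcnip4, Kcnj1, Kcnj14, Kcnh1 and Kcng3.

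The silent subunits included 1 gene toward each end. Kcnf1 was at 7.60, 7.68 and 7.67 in knockouts 5 to 7, against 7.40, 7.03, 7.07 and 7.44 in controls 1 to 4. The knockouts lay close together and above all controls, a difference of 0.41 (SE 0.13, 95% interval 0.12 to 0.71, adjusted p = 0.362), and 0.43 (SE 0.14) without controls 3 and 4. Kcng3 was at 8.12, 8.97 and 8.65 in knockouts 5 to 7, against 8.79, 9.28, 8.88 and 9.24 in controls 1 to 4. Knockout 5 was the lowest of all samples and knockout 6 lay within the controls, a difference of -0.47 (SE 0.21, adjusted p = 0.370) that was -0.24 without knockout 5 and -0.46 without controls 3 and 4. The other 6 silent subunits differed by -0.10 to 0.32, and 4 of them were above 0.

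Accessory subunits had 13 of 16 differences above 0 and a median of 0.17, against 30 of 49 and 0.04 for pore-forming subunits; the difference between these classes was not tested. The 4 Kcnip genes, which encode calcium-binding proteins that join A-type channels, were all above 0. Kcnip4 was at 9.57, 9.06 and 8.66 in knockouts 5 to 7, against 8.65, 8.75, 7.59 and 8.08 in controls 1 to 4. Controls 3 and 4 were the lowest samples, and knockout 7 lay between controls 1 and 2. The difference was 0.83 (SE 0.31, 95% interval 0.11 to 1.55, adjusted p = 0.362, unadjusted p under 0.05 in 3 of 7 fits that left out a sample), and 0.39 (SE 0.24) without those 2 controls.

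Kcnip1 showed the same order of the control samples. It was at 11.33, 11.01 and 11.04 in knockouts 5 to 7, against 11.00, 11.01, 10.26 and 10.54 in controls 1 to 4. The knockouts were all above the controls, but knockout 6 exceeded control 2 by less than the values' rounding, and the difference of 0.43 (SE 0.20, adjusted p = 0.375) was 0.12 (SE 0.13) without controls 3 and 4. Kcnip3, whose protein also acts as a calcium-regulated transcriptional repressor, differed by 0.68 (SE 0.37), or 0.32 without those controls, and Kcnip2 by 0.39 (SE 0.24), or 0.08. For Kcnip3 knockouts 5 and 6, at 9.17 and 9.04, stood above knockout 7 at 7.78 and controls at 7.61 to 8.53.

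Among beta subunits of the large-conductance calcium-activated channel (BK), Kcnmb2 and Kcnmb1 differed by 0.44 and 0.36, against 0.02 for the pore. The contrast between them was not tested, and their 95% intervals overlapped that of the pore. Kcnmb2, which makes BK channels inactivate, was at 11.15, 11.09 and 10.92 in knockouts 5 to 7, against 10.73, 10.82, 10.46 and 10.47 in controls 1 to 4. Kcnmb1, known from smooth muscle, where it raises the channel's calcium sensitivity, was at 8.98, 9.34 and 9.04 in knockouts 5 to 7, against 8.82, 8.82, 8.59 and 8.81 in controls 1 to 4. In both genes all knockouts lay above all controls. Kcnmb2 differed by 0.44 (SE 0.12, 95% interval 0.15 to 0.72) and Kcnmb1 by 0.36 (SE 0.12, 95% interval 0.08 to 0.63), each with an adjusted p of 0.362. Without controls 3 and 4 the differences were 0.28 (SE 0.12) and 0.30 (SE 0.14). After quantile normalization they were 0.23 for Kcnmb2 and 0.23 for Kcnmb1 (unadjusted p = 0.0374 and 0.0710, limma). Kcnma1, the BK pore, was at 10.64, 10.65 and 10.92 in knockouts 5 to 7, against 10.81, 10.72, 10.56 and 10.77 in controls 1 to 4, with overlapping groups and a difference of 0.02 (95% interval -0.24 to 0.28). Kcnmb4 differed by 0.03. Since Kcnmb1 lies within Kcnip1 on the other strand, whether probes of one also read RNA of the other was not tested.

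The remaining accessory genes were mixed. Kcnab2, a beta subunit of Kcna channels, was at 7.34, 7.35 and 7.29 in knockouts 5 to 7, against 7.13, 7.00, 7.18 and 7.07 in controls 1 to 4, with no overlap. Its difference was 0.23 (SE 0.09, adjusted p = 0.362), with an unadjusted p under 0.05 in 3 of 7 fits that left out a sample. After quantile normalization it was 0.21 (unadjusted p = 0.0833, limma). Kcnab1 and Kcnab3 differed by -0.09 and 0.10. Among 5 Kcne genes, single-pass proteins that modify Kcnq1 and other pores, differences ran from -0.09 for Kcne2 to 0.51 (SE 0.42) for Kcne3. Kcne3 had the widest spread of any member between knockouts (SD 0.86, n = 3), at 6.49, 6.82 and 5.19 in knockouts 5 to 7, against 5.94, 6.19, 4.94 and 5.57 in controls 1 to 4. Its difference was 0.10 without controls 3 and 4, 0.18 without knockout 6 and 1.00 without knockout 7. Kcnrg, a regulator of Kv channels, differed by -0.07, while Trim13, which overlaps it in the RefSeq annotation, differed by 1.29 (SE 0.53).

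Inward rectifiers, 14 genes, had a median difference of 0.04 with 8 above 0. Kcnj11 encodes the pore of the beta cell ATP-sensitive channel, and was at 9.57, 9.56 and 9.78 in knockouts 5 to 7, against 9.82, 9.77, 9.22 and 9.52 in controls 1 to 4. The knockouts lay inside the range of the controls. The difference was 0.05 (SE 0.16), with a 95% interval of -0.30 to 0.41, or 0.81-fold to 1.33-fold, and -0.16 (SE 0.12) without controls 3 and 4. Kcnj6, a channel opened by G proteins, was at 7.51, 7.85 and 7.47 in knockouts 5 to 7, against 7.63, 7.93, 7.13 and 7.21 in controls 1 to 4, also inside the controls' range, with a difference of 0.13 that was -0.17 without controls 3 and 4.

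The lowest difference of the family, that of Kcnj14, was in this subfamily, as was Kcnj1, the only member lower at an unadjusted p under 0.05. The silent subunit Kcng3, at -0.47, lay between these 2 genes. Kcnj1, the renal outer medullary channel, was at 4.51, 4.21 and 4.24 in knockouts 5 to 7, against 4.38, 4.78, 4.72 and 4.98 in controls 1 to 4. Control 1 fell among the knockouts, and the signal was low in all samples. The difference was -0.39 (SE 0.15, 95% interval -0.75 to -0.04, adjusted p = 0.362). Its unadjusted p was under 0.05 in 2 of 7 fits that left out a sample, and without controls 3 and 4 the difference was -0.26 (unadjusted p = 0.145, limma). Kcnj14 was at 5.62, 6.24 and 6.66 in knockouts 5 to 7, against 6.71, 6.79, 6.76 and 6.46 in controls 1 to 4. The knockouts differed among themselves more than the controls did, and the difference of -0.51 (SE 0.22, adjusted p = 0.366) was -0.23 without knockout 5, -0.75 without knockout 7 and -0.58 without controls 3 and 4.

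Tandem-pore channels, which carry background potassium current, had 9 of 10 differences above 0 and a median of 0.15, or 6 of 10 and 0.04 without controls 3 and 4. Kcnk3, the acid-sensitive TASK channel, was at 9.39, 9.79 and 9.09 in knockouts 5 to 7, against 9.09, 9.43, 8.88 and 8.78 in controls 1 to 4. The groups overlapped, and the difference of 0.38 (SE 0.20, adjusted p = 0.416) was 0.16 (SE 0.21) without those controls. Kcnk1 differed by 0.37 (SE 0.18), or 0.09 without them, and the other 8 by -0.01 to 0.21.

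Of the small- and intermediate-conductance calcium-activated channels, Kcnn4 alone had an unadjusted p under 0.05. This intermediate-conductance channel was at 6.76, 6.97 and 6.73 in knockouts 5 to 7, against 6.71, 6.38, 6.64 and 6.43 in controls 1 to 4. The lowest knockout was just above the highest control, and the difference was 0.28 (SE 0.12, adjusted p = 0.364). Its unadjusted p by limma was under 0.05 in 2 of 7 fits that left out a sample, and was 0.0985 without controls 3 and 4 (difference 0.27) and 0.0602 after quantile normalization. Kcnn3 was at 10.04, 9.89 and 10.52 in knockouts 5 to 7, against 10.44, 9.91, 9.97 and 10.02 in controls 1 to 4. Knockout 7 and control 1 were its high samples. Kcnn2 was at 6.80, 6.89 and 6.84 in knockouts 5 to 7, against 6.97, 6.78, 6.61 and 6.87 in controls 1 to 4. Kcnn1 was at 6.52, 6.45 and 6.22 in knockouts 5 to 7, against 6.41, 6.49, 6.48 and 6.28 in controls 1 to 4. For these 3 small-conductance channels the groups overlapped and the differences were 0.06, 0.04 and -0.02, with 95% intervals of -0.36 to 0.49, -0.21 to 0.28 and -0.27 to 0.23. Over the 22 Kcn genes listed for a described role in islet cells, 16 were measured, and 3 had an unadjusted p under 0.05, all upward (Kcna2, Kcnf1, Kcnn4), where 11.6% of all genes were called higher. Their median difference was 0.05, against 0.08 over all genes, and it was -0.03 without controls 3 and 4 and 0.002 after quantile normalization.

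**Figure D3:**
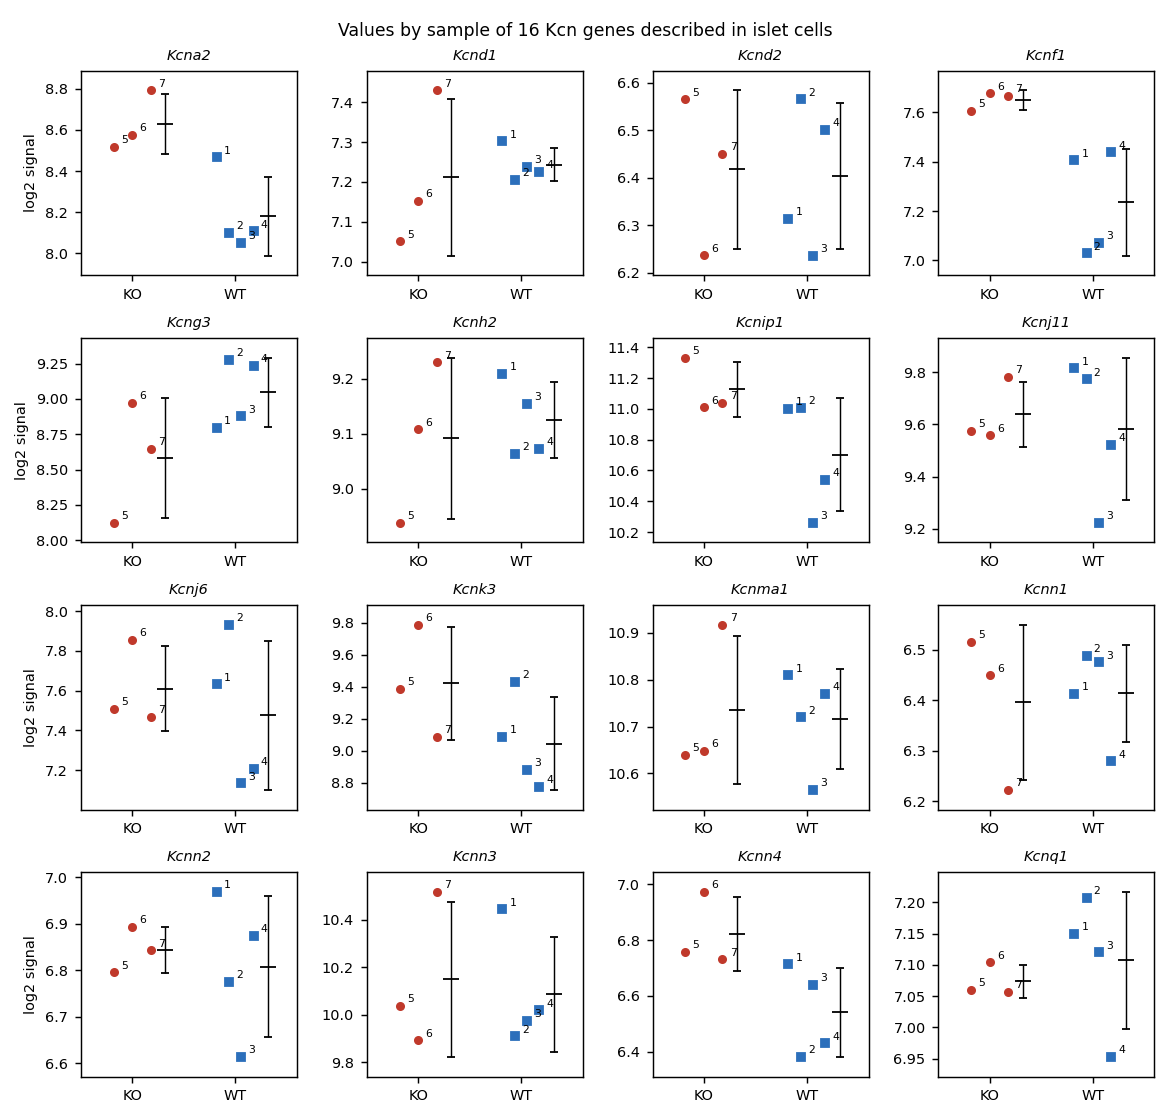
Log2 signal (y axis, own scale in each panel) of the 16 Kcn genes listed for a described role in islet cells, in knockout (KO, red circles) and control (WT, blue squares) samples, with mean and SD beside each group (n = 3 and 4). Kcnj11 and Kcnma1 overlap between groups, and control 3 is the lowest sample for both and for Kcnip1.

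By sample, the subfamilies did not vary alike. The Kcnip genes deviated most from their own means, with medians of 0.67, 0.38 and 0.02 in knockouts 5 to 7, against 0.07, 0.12, -0.71 and -0.44 in controls 1 to 4. Over all genes the medians were 0.07, 0.09 and 0.01 in knockouts 5 to 7, against 0.03, 0.01, -0.08 and -0.09 in controls 1 to 4. The Kcnm and Kcnk medians were also lowest in controls 3 and 4, whereas the Kcnj median was 0.15 in control 3, its highest. The Kcnip median of knockout 7 lay below those of controls 1 and 2, though not in every gene, while Kcnh5 was highest in that sample.

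**Figure D4:**
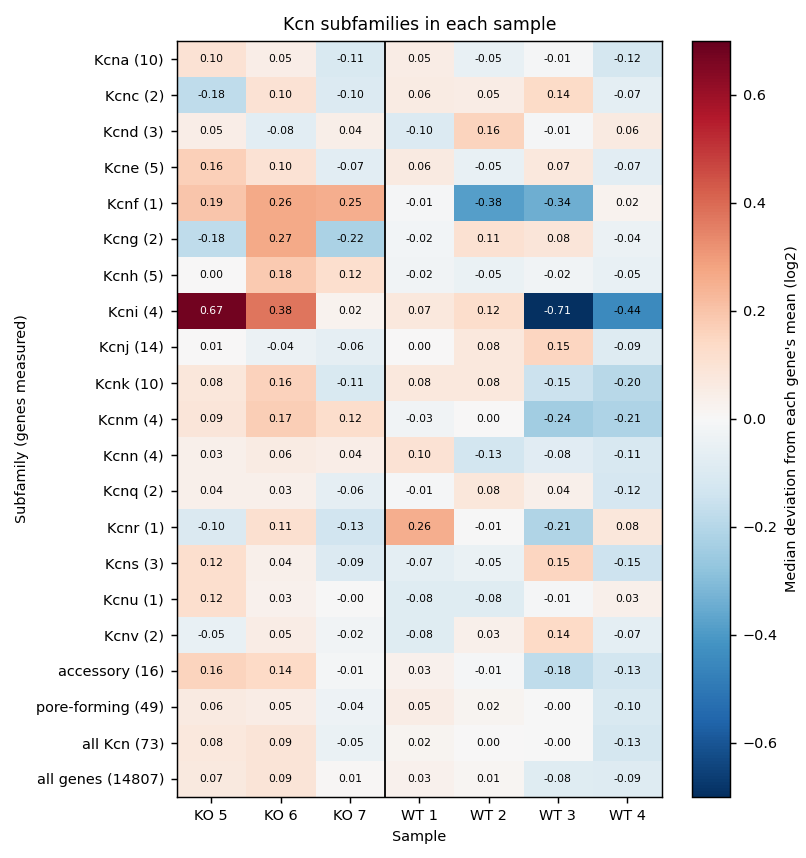
Median over the genes of each subfamily (rows, number of genes in brackets) of the deviation from each gene's mean over 7 samples (log2, colour and printed value), by sample, knockout left of control. The Kcni row, which is the 4 Kcnip genes, runs from 0.67 in knockout 5 to -0.71 in control 3, and the row of all 14807 genes from 0.09 to -0.09.

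Without controls 3 and 4, 5 members had an unadjusted p under 0.05, all higher (6.85%), against 4.73% of all genes (3.51% higher, 1.22% lower), and 0 had an adjusted p under 0.05. Of those 5, 4 were among the 9 over all samples (Kcnh5, Kcnf1, Kcnmb2 and Kcnab2), and the other was Kcnj5, a G protein-gated inward rectifier, at 0.35, against 0.27 over all samples. The difference took the other sign for 17 of 73 members. Among the 16 accessory genes 8 had a difference over 1.5 times smaller, and 12 were above 0 with a median of 0.09. The median over all members was then 0.02, and that over all genes 0.03.

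**Figure D5:**
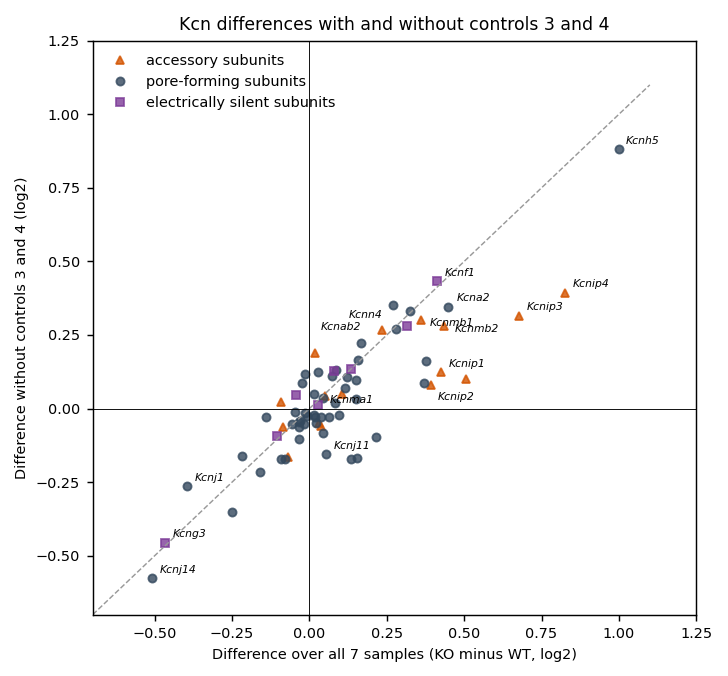
Difference of each Kcn gene without controls 3 and 4 (y axis, log2) against that over all 7 samples (x axis, knockout minus control, log2), by class of subunit, with a dashed line of equality. Kcnh5 and Kcnf1 lie near the line, at 0.88 and 0.43 on the y axis, and the 4 Kcnip genes lie below it, at 0.08 to 0.39.

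Other genes that set potassium gradients and excitability were described by lists, to be read against the 11.6% of all genes called higher, the 2.14% called lower and their median of 0.08. Of 15 measured channel partners, 1 had an unadjusted p under 0.05 upward and 1 downward, and the median difference was 0.06. Dpp6, which joins A-type channels together with Kcnip proteins, was at 9.35, 9.43 and 9.17 in knockouts 5 to 7, against 9.14, 9.14, 8.90 and 8.93 in controls 1 to 4, above them in every case, with a difference of 0.29 (SE 0.11, limma, adjusted p = 0.362) that was 0.18 without controls 3 and 4 and 0.15 after quantile normalization. Stx1a, a syntaxin that binds several channels, differed by -0.27 (SE 0.10), and Ank3, an anchor of Kcnq and sodium channels, by -0.20 (SE 0.11). Of 20 genes of potassium transport 3 were higher and 0 lower (median 0.08), namely Atp1b3 by 0.50 (SE 0.15) and Atp1b2 by 0.33 (SE 0.12), beta subunits of the sodium-potassium pump, and Fxyd1, its regulator, by 0.30 (SE 0.12). Atp1b2 differed by 0.22 without controls 3 and 4 and by 0.19 after quantile normalization. Of 21 sodium, HCN and other cation channel genes 2 were higher and 0 lower (median 0.07), Cngb3, a cyclic nucleotide-gated subunit known from cone photoreceptors, by 1.05 (SE 0.34), and Scn3b, a sodium channel beta subunit, by 0.54 (SE 0.16). Scn7a differed by 0.38 (SE 0.21), or 0.22 without controls 3 and 4. Of 16 chloride channel genes 0 were higher and 1 lower (median 0.01), Clcn2 by -0.35 (SE 0.12), while Clcn6 and Clcn3 differed by -0.37 (SE 0.18) and 0.27 (SE 0.14). Without controls 3 and 4 the differences were -0.22 for Clcn2, -0.22 for Clcn6 and 0.10 for Clcn3. The list medians without them were -0.04 for partners, 0.02 for potassium transport, -0.004 for cation channels and -0.05 for chloride channels. Of these 4 lists 0 genes passed over all genes.

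Islets hold several cell types, so fewer cells of a type and less RNA per cell cannot be told apart. The mean log2 level of 8 beta cell markers ran from 11.81 to 12.07 in knockout and from 11.81 to 11.98 in control islets. That of 5 of 7 alpha cell markers ran from 9.64 to 10.21 in knockout and from 9.42 to 9.95 in control islets, and that of 4 delta cell markers from 10.11 to 10.45 in knockout and from 10.22 to 10.32 in control islets. Pou3f4, an alpha cell factor, differed by 1.20 (SE 0.39, limma, adjusted p = 0.362), or 0.97 without controls 3 and 4. The other alpha cell markers measured differed by 0.22 (Ttr), 0.08 (Irx2), 0.02 (Gcg) and 0.01 (Irx1). Without those controls these were 0.11, -0.01, -0.01 and -0.22. The beta cell marker G6pc2 differed by 0.39 (SE 0.17), or 0.14 without controls 3 and 4. Of the 8 beta cell markers 3 were above 0 and 5 below, with a median of -0.01. Slc30a8 was the lowest of them, at -0.24 (SE 0.11). The endothelial marker Kdr differed by -0.45 (SE 0.17), or -0.34 without controls 3 and 4. Like Pou3f4, G6pc2 and Kdr had an unadjusted p under 0.05 by limma. For 6 stromal markers, a source of Kcnmb1 in smooth muscle and related cells, the level ran from 7.61 to 7.89 in knockout and from 7.36 to 8.04 in control islets. Of these 6, Dcn differed by 0.69, Acta2 by 0.50, Col3a1 by 0.14, Col1a2 by 0.08, Col1a1 by 0.03 and Pdgfrb by -0.14. Without controls 3 and 4 the differences were 0.04, 0.42, -0.01, -0.04, -0.13 and -0.16 in the same order. For 5 endothelial markers the level ran from 8.84 to 9.02 in knockout and from 8.91 to 9.37 in control islets. Markers of pancreatic polypeptide cells (2 of 2, median difference 0.18), acinar (4 of 7, 0.12), ductal (3 of 5, 0.18), macrophage (4 of 5, -0.11) and neural or Schwann cells (4 of 6, 0.11) had 0 genes at an unadjusted p under 0.05. Immediate early genes, which respond to stimulation and tissue handling, were at mean levels of 10.00, 9.67 and 10.59 in knockouts 5 to 7, against 10.40, 9.78, 10.97 and 11.01 in controls 1 to 4, highest in the controls where the Kcnip genes were lowest. The part of cell make-up or handling in the Kcn differences was not tested.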

How the data were processed

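The arrays measured transcripts in 3 knockout and 4 control islet samples. The authors' deposited table holds a log2 value for each transcript cluster and sample. RMA and Affymetrix Expression Console are named as its source by the submitters' processing notes. RMA subtracts background, normalizes between arrays and summarises probes, and gives no detection call. Values between 2.50 and 14.3 fit a log2 scale. No version, setting or build is stated. Per the labels' protocols, total RNA was extracted with Trizol and labelled by a Nugen protocol. Array medians lay between 7.11 and 7.29, replicates correlated at 0.989 to 0.994 (knockout) and 0.980 to 0.995 (control), and with 7 arrays precision is limited by their number.

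Among 23238 probe sets, 14939 carried a single gene symbol, giving 14807 genes. Knockout and control samples, grouped by title with no pairing, entered a linear model in limma 3.58.1 (R 4.3.3, two-sided, no covariate, Benjamini-Hochberg over all genes), which was tested on simulated data. The lists of partners and channels, the markers and the Kcn members were chosen with earlier results of these data known. Every sample's value was given for listed islet channels, for the 12 members with the smallest p and for any with p under 0.05, and the 3 genes of smallest p were named in the 4 partner and channel lists. The sample values of Kcnip3 and Kcne3 were added after they were seen. So were the names Kcnip2, Kcnk1, Kcnj5, Trim13, Pou3f4, G6pc2, Slc30a8 and Kdr. Alternatives were a filter on dim genes, the mean of probe sets, quantile normalization, centring, other priors and weights, an unmoderated test, all probe sets, and leaving out samples, among them controls 3 and 4 together.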

Additional observations from a re-analysis of the deposited data

Results flagged for a closer look

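Among 73 members 5 had 1 control sample far from the other 3, judged by its gap over the range, which chance gives in about 1 of 20 genes. Kcnh5 was at 8.52 in control 1, against 7.94 to 8.01 in the others, and Kcna2 at 8.47 in control 1, against 8.05 to 8.11. Kcnmb1 was at 8.59 in control 3, against 8.81 to 8.82. Kcnj15 was at 6.24 in control 2, against 5.99 to 6.01, and Kcnj16 at 4.11 in control 2, against 4.26 to 4.27.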

How the results depend on the processing

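Under 16 alternatives 0 members passed the adjusted threshold, with a lowest adjusted p of 0.173, shared by 5 members, without control 1. The count of higher members at an unadjusted p under 0.05 was 4 to 13 with single samples left out, and 5 when genes below the median gene were left out (18 of 73 members remained, 27.8% of them called, against 17.0% of all genes so filtered), 5 after quantile normalization, 4 with samples centred on their median and 5 without controls 3 and 4. Array weights gave 11 higher members, and the trended and robust prior or the mean of probe sets gave 8. Testing all probe sets gave 7 and the unmoderated test 6. For these settings the share of all genes called was not computed. The count of lower members was 0 to 2 with single samples left out and 3 after quantile normalization or centring. It was 2 with the trended and robust prior or array weights, and 0 with the filter, the unmoderated test or without controls 3 and 4.

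The median over members was 0.34 with the filter, against 0.16 for all genes so filtered, and 0.03 to 0.09 with single samples left out. Centring lowered all differences by 0.14, so members lay 0.03 below the median of all genes in both settings. It gave a median of -0.0925 over members, and by subfamily -0.14 for Kcna, -0.24 for Kcnc, -0.17 for Kcnd, -0.0994 for Kcne, -0.0129 for Kcnh, -0.10 for Kcnj, 0.0596 for Kcnm, -0.0865 for Kcnn, -0.13 for Kcnq, -0.11 for Kcns, -0.0512 for Kcnu and -0.15 for Kcnv. With the filter, which leaves fewer genes, the medians were 0.31 for Kcna, -0.47 for Kcng, 0.32 for Kcnh, 0.37 for Kcnk and 0.36 for Kcnm. The Kcne median was 0.16 with array weights and the Kcnj median -0.0571 without controls 3 and 4. With single samples left out medians ran from -0.0711 to 0.0898 for Kcna, from -0.0506 to 0.0249 for Kcnj and from 0.0141 to 0.14 for Kcnn.

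Of 24 named genes 15 kept their sign throughout. After quantile normalization the difference was -0.0945 for Kcnj11, -0.18 for Kcnma1 and -0.11 for Kcnn3. With centring it was -0.12 for Kcnd2, -0.081 for Kcnj11, -0.001 for Kcnj6, -0.12 for Kcnma1, -0.10 for Kcnn2 and -0.073 for Kcnn3. With array weights it was -0.066 for Kcnd2, -0.12 for Kcnj11, -0.0634 for Kcnma1, 0.0074 for Kcnn1 and -0.0882 for Kcnn3. Without controls 3 and 4 it was -0.0218 for Kcnd2, -0.16 for Kcnj11, -0.17 for Kcnj6, -0.0295 for Kcnma1, -0.0279 for Kcnn2 and -0.0272 for Kcnn3. With single samples left out the ranges were -0.14 to 0.0484 for Kcnd1, -0.0601 to 0.10 for Kcnd2, -0.10 to 0.0441 for Kcnh2, -0.0651 to 0.13 for Kcnj11, -0.0721 to 0.0669 for Kcnma1, -0.0774 to 0.0689 for Kcnn1, -0.0289 to 0.0893 for Kcnn2 and -0.12 to 0.19 for Kcnn3. Beyond these constructions the cause was not tested. No paired analysis was possible because the groups share no replicate number. RMA signal has no background call, and 55 of 73 members lay below the median gene.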
